A study of Rattus norvegicus with 12 samples.

Results

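The genes described here encode canonical transient receptor potential (TRPC) cation channels in the rat striatum. They were chosen by symbol, as *Trpc1*, *Trpc4*, *Trpc5*, *Trpc6* and *Trpc7*, and are 5 of the 17337 genes in the count table. *Trpc5* came to attention through its lower counts in MA24 than in MA12 rats, so for MA24 vs. MA12 the values of the TRPC genes are given as a description, with no p-value, and nothing is supported with them. Poly-A RNA from the striatum of 12 wild-type rats was sequenced, 1 library per rat, and all 12 rats had 16 days of methamphetamine (MA) self-administration. The methods give male Sprague-Dawley rats with a jugular catheter for MA12 and MA24. The MA12 rats (21, 31, 4N and 7N) were killed 12 h and the MA24 rats (9N, 14N, 15N and 16N) 24 h after the last session. The labels call the remaining rats (9, 11, 12 and 13) non-addicted. The sources used here do not describe how these rats were picked out or when they were killed. Rats that took saline were not analysed here, so by the labels none of the groups is drug-free. No group is labelled as killed directly after the last session. All 12 libraries carry 1 batch label. A rat number ends in N in all 4 MA24 rats, in 2 of the 4 MA12 rats and in no non-addicted rat, and what N stands for is not given in the sources used here. For that reason the effect of the abstinence time and of the kind of rat number cannot be fully told apart. For non-addicted vs. MA24, the group and the kind of rat number cannot be told apart at all.

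TRPC proteins form nonselective cation channels that let calcium and sodium into neurons and other cells when receptors coupled to Gq activate phospholipase C. TRPC6 and TRPC7 are opened by diacylglycerol, TRPC4 and TRPC5 are close relatives that form channels alone or together with TRPC1, and TRPC1 mostly serves as a partner in mixed channels. In the forebrain, *Trpc4* is known for high expression in the lateral septum, which adjoins the striatum at its medial side, and *Trpc5* for expression in neurons of the cortex, hippocampus and amygdala.

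Each library held between 17908962 and 23850284 counts on genes. Markers of striatal projection neurons were abundant in every rat, since all 12 listed genes had counts and summed to between 15999 and 20829 CPM (counts scaled by the library total after TMM adjustment). Markers of cortical excitatory neurons summed to at most 33.6 CPM and those of hippocampal neurons to at most 28.7 CPM, with *Tdo2* at 0 in all 12 rats. By group, the hippocampal sum was 16.6 to 19.5 CPM in non-addicted, 21.4 to 28.7 in MA12 and 20.5 to 26 in MA24 rats. The cortical sums overlapped, at 23.4 to 33.6, 25.2 to 32.5 and 19.3 to 33.3 CPM in the same order. The part of these markers in the values of the TRPC genes was not tested. The profiles of MA24 rats 14N and 16N and of non-addicted rat 11 lay farthest from the rest, with median correlations of 0.978, 0.979 and 0.979 with the other libraries against 0.981 to 0.983 in the other 9 rats. For the TRPC genes that moved with these rats, values without them are given beside the result.

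The sequences around the starts of *Trpc4* and *Trpc5* are shown because, of the 5 genes, these 2 vary most among the rats. Both are RefSeq windows of the GRCr8 assembly, from 250 bases before to 50 bases after an annotated start, written 5′ to 3′ on the strand of the gene. The *Trpc5* window lies at chrX:113027589-113027888 on the minus strand and the *Trpc4* window at chr2:140501046-140501345 on the plus strand, at a transcript start inside the RefSeq gene rather than at its outermost end. The *Trpc4* window may therefore hold sequence from within the gene instead of a promoter. Nothing about a *Trpc4* promoter is read from its GC content or from the motifs it lacks.
Trpc4: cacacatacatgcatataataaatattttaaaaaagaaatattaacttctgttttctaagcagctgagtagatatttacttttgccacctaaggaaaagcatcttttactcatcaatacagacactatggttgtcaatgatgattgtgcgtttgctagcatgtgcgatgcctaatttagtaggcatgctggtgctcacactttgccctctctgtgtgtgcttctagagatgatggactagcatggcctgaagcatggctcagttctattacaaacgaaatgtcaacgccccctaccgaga
Trpc5: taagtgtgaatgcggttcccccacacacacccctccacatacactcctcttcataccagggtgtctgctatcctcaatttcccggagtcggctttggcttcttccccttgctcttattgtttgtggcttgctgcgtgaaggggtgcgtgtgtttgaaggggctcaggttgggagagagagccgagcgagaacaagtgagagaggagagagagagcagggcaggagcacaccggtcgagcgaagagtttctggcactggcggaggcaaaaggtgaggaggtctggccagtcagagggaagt
The *Trpc4* window had a GC content of 39.7% and the *Trpc5* window of 56.3%, against 65.3% for *Trpc6*, 58% for *Trpc7* and a median of 51.7% over all 33469 windows of the same length. 4 of the 5 genes had a window, and *Trpc1* had none. Several short motifs were searched on both strands. They were the cAMP response element (letters TGACGTCA), its core (letters TGACG, contained in the full element), the E-box (letters CACGTG), the AP-1 motif (letters TGACTCA), the GC box (letters GGGCGG), the TATA box (letters TATAAA) and the CCAAT box. The windows of *Trpc4*, *Trpc5* and *Trpc7* held no match to any of them. The *Trpc6* window held 1 TGACG and none of the other motifs. Of all windows, 1.83% held the cAMP response element, 21.2% its core, 6.42% the E-box, 4.63% the AP-1 motif, 33.1% the GC box, 14.2% the TATA box and 37.5% the CCAAT box.

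Among the TRPC genes, *Trpc1* hardly varied, *Trpc7* and *Trpc6* varied about as much as other genes with similar counts, and *Trpc4* and *Trpc5* varied far more, *Trpc5* mainly among the MA24 rats. Levels are on the log2 CPM scale, computed with a prior count of 2. The ratio of the highest to the lowest rat was 1.32 for *Trpc1*, 2.03 for *Trpc7*, 2.78 for *Trpc6*, 8.07 for *Trpc4* and 16.5 for *Trpc5*. The SD within groups, pooled over the 3 groups, was 0.08 for *Trpc1* against a median of 0.14 for 2556 genes whose mean count lay within 1.5-fold. It was 1.04 for *Trpc4* against 0.26 (1397 genes), and 99.4% of those genes had a smaller SD. For *Trpc5* it was 0.81 against 0.41 (923 genes), and 96.2% had a smaller SD. That value comes from the MA24 group (SD 1.29), through which the gene was chosen, whereas its SD was 0.28 in non-addicted and 0.44 in MA12 rats. *Trpc6* (0.43 against 0.34) and *Trpc7* (0.32 against 0.30) were closer to their peers. Since levels of different genes also depend on transcript length, the 5 genes are not ranked by level.

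**Figure D1:**
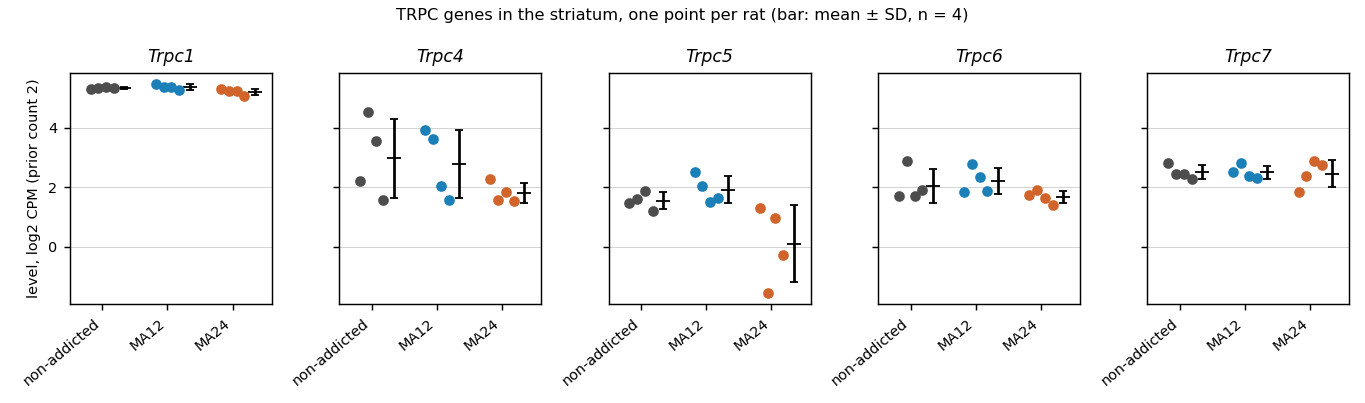
Level of each TRPC gene in log2 CPM (vertical axis, a log scale) for the non-addicted, MA12 and MA24 rats, with 1 point per rat and a bar for the mean ± SD (n = 4). *Trpc1* stays between 5.07 and 5.48 in all 12 rats, whereas *Trpc4* spreads from 1.53 to 4.54 and *Trpc5* from -1.55 to 2.50.

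*Trpc5*, which encodes a channel subunit enriched in neurons, was lower, after scaling for depth, in each MA24 rat than in any MA12 rat. Its counts were 132 in MA12 rat 21, 96 in rat 31, 59 in rat 4N and 54 in rat 7N. They were 55 in MA24 rat 9N, 5 in rat 14N, 36 in rat 15N and 14 in rat 16N. After scaling, the MA12 rats ranged from 1.52 to 2.50 log2 CPM and the MA24 rats from -1.55 to 1.30, so the groups did not overlap, although rat 9N lay close to MA12 rat 4N. The low end of the MA24 group came from rats 14N and 16N, and both are among the 3 rats whose profiles lay farthest from the rest.

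The counts of *Trpc5* in those 2 rats are small. The 95% Poisson interval of the count ran from 1.62 to 11.7 for the 5 counts of rat 14N and from 7.65 to 23.5 for the 14 counts of rat 16N, against 110 to 157 for the 132 counts of MA12 rat 21. These intervals cover counting error only. The mean level was 0.11 ± 1.29 log2 CPM in MA24 and 1.93 ± 0.44 in MA12 (SD, n = 4 each), and the fitted log2 fold change (FC), MA24 minus MA12, was -1.55 (SE 0.45). Without rat 14N the log2 FC was -1.21, and without rat 16N it was -1.36. Among the 6 rats numbered with N it was -1.15. In bulk tissue, fewer cells that express a gene and less RNA per cell cannot be told apart.

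The non-addicted rats held *Trpc5* near the MA12 range. They had 52 (rat 9), 60 (rat 11), 88 (rat 12) and 43 counts (rat 13), a mean of 1.55 ± 0.28 log2 CPM (SD, n = 4). Against MA12, the log2 FC, non-addicted minus MA12, was -0.42 (SE 0.28), with a 95% interval that includes 0, and edgeR's quasi-likelihood test gave an adjusted p of 0.568. Without MA12 rat 21 this log2 FC was -0.19. Against MA24, the log2 FC was 1.13 (SE 0.45, 95% interval 0.18 to 2.07), with an adjusted p of 0.217 in the same test. It was 0.78 without MA24 rat 14N and 0.94 without rat 16N. Both comparisons use rats through which the gene was chosen, MA12 in the former and MA24 in the latter, so neither is independent of the choice. Non-addicted rat 13, at 1.22, lay below MA24 rat 9N, at 1.30. For non-addicted vs. MA24, a two-sided exact permutation test of the log2 CPM gave p = 0.0571, where 4 rats against 4 can reach 0.0286. *Trpc5* overlaps an annotated gene on the opposite strand, *Trpc5os*, and the library kit does not mark strand, so reads from the 2 genes cannot be told apart in these counts.

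*Trpc4*, whose channel opens downstream of Gq- and Gi-coupled receptors, was high in 4 rats and low in the other 8. In the non-addicted rats its counts were 87 (rat 9), 471 (rat 11), 286 (rat 12) and 56 (rat 13). The MA12 rats had 355 (rat 21), 292 (rat 31), 85 (rat 4N) and 51 counts (rat 7N), and the MA24 rats had 111 (rat 9N), 59 (rat 14N), 68 (rat 15N) and 53 (rat 16N). Non-addicted rats 11 and 12 and MA12 rats 21 and 31 lay at 3.56 log2 CPM or more, the other 8 rats at 2.28 or less, and no rat fell between. No MA24 rat was among the high ones, and the groups overlapped in all 3 comparisons.

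The mean level of *Trpc4* was 2.98 ± 1.33 log2 CPM in non-addicted rats, 2.78 ± 1.15 in MA12 and 1.81 ± 0.34 in MA24 (SD, n = 4 each). For MA24 vs. MA12 the log2 FC was -1.28 (SE 0.38). Among the rats numbered with N, 2 MA12 and 4 MA24, it was 0.02, since MA12 rats 4N and 7N had *Trpc4* in the range of the MA24 rats. Leaving out MA12 rat 21 gave -0.86 and leaving out rat 31 gave -1.06.

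Against the non-addicted rats, too, the values of *Trpc4* depended on single rats. For non-addicted vs. MA24 the log2 FC was 1.59 (SE 0.43, 95% interval 0.69 to 2.49), and edgeR's quasi-likelihood test gave an unadjusted p of 0.00155 and an adjusted p of 0.0917. Without non-addicted rat 11 the log2 FC was 0.87 (adjusted p = 0.3, edgeR), and without rat 13, which had the lowest level of its group, it was 1.90 (adjusted p = 0.00347, edgeR). Leaving out rat 9 gave 1.84 (adjusted p = 0.0325, edgeR). The exact permutation test of the log2 CPM values, two-sided, gave p = 0.2. For non-addicted vs. MA12 the log2 FC was 0.30 (SE 0.50, 95% interval -0.75 to 1.35, adjusted p = 0.865, edgeR), and it turned to -0.41 without non-addicted rat 11.

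**Figure D2:**
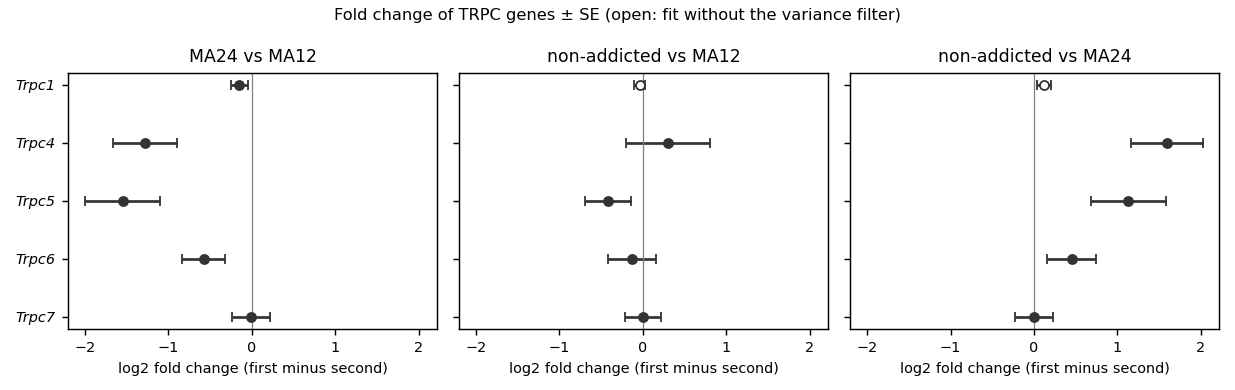
Log2 FC of each TRPC gene (horizontal axis, first group minus second) with bars of 1 SE for MA24 vs. MA12, non-addicted vs. MA12 and non-addicted vs. MA24. Open circles are *Trpc1* values from a fit without the variance filter. *Trpc4* and *Trpc5* lie at -1.28 and -1.55 for MA24 vs. MA12, the comparison through which *Trpc5* came to attention, and at 1.59 and 1.13 for non-addicted vs. MA24. *Trpc7* lies at 0 in all 3 panels to within 0.01.

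Markers of the lateral septum, the transcription factors *Zic1*, *Zic2*, *Zic4* and *Zic5* and the receptors *Crhr2* and *Avpr1a*, had a higher summed level in the rats that were high in *Trpc4*. This sum was 92.9 CPM in non-addicted rat 11, 82.9 in MA12 rat 21, 60.9 in MA12 rat 31 and 47.6 in non-addicted rat 12. In the other 8 rats it lay between 25.8 and 38.5 CPM. Most of the sum came from *Zic1* and *Zic2*, with 42.4 and 36.7 CPM in rat 11 and 21.9 and 20.2 CPM in rat 12. All 6 markers had counts, and none was at 0 in all 12 rats. *Zic1* alone had 859, 808, 704 and 535 counts in rats 11, 21, 31 and 12, the same order as *Trpc4* after scaling, against 180 to 316 counts in the other 8. *Crhr2* did not follow that split, since rats 12 and 31 had 11 and 16 counts, fewer than the 24 of non-addicted rat 9, although rats 21 and 11 had 114 and 73. Markers of striatal projection neurons had their lowest sums in the rats high in *Trpc4*. These sums were 15999 CPM in rat 11, 16081 in rat 21, 16357 in rat 12 and 16664 in rat 31. Every other rat had at least 17293 CPM.

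By group, the summed septal level ranged from 31.3 to 92.9 CPM in non-addicted, 32 to 82.9 in MA12 and 25.8 to 38.5 in MA24 rats. For MA24 vs. MA12, all 6 markers had a log2 FC below 0, with a median of -0.91 against -0.02 for all genes, and *Crhr2*, a receptor for urocortins, fell in the quasi-likelihood test but not in DESeq2 or without the variance filter. Its counts were 114 in MA12 rat 21, 5 to 16 in the other MA12 rats and 1 to 4 in MA24 rats, and the call was also lost without MA12 rat 21 or MA24 rats 14N, 15N or 16N. For non-addicted vs. MA24, all 6 were above 0, with a median of 0.84, and none passed the test, although DESeq2 called *Crhr2*. For non-addicted vs. MA12, 1 was above and 5 were below 0, with a median of -0.12 and none called. The part of the septal and projection neuron markers in the *Trpc4* result was not tested.

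**Figure D3:**
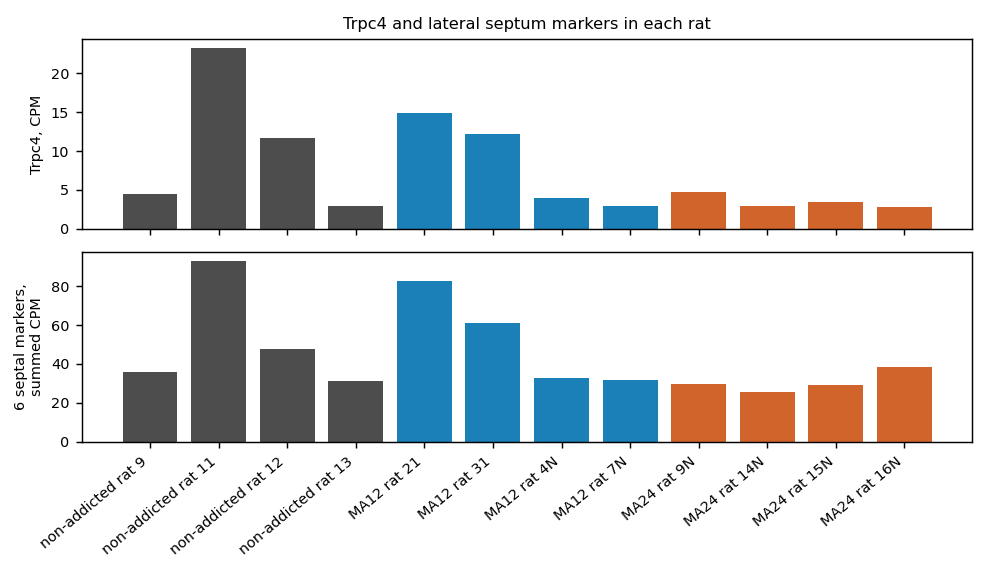
*Trpc4* in CPM (upper bars) and the summed CPM of 6 lateral septum markers (lower bars) in each of the 12 rats, with 1 bar per rat coloured by group and both axes starting at 0. Non-addicted rats 11 and 12 and MA12 rats 21 and 31 have the tallest bars in both panels, from 11.7 to 23.2 CPM for *Trpc4* and from 47.6 to 92.9 CPM for the markers.

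*Trpc1*, the partner subunit of mixed channels, moved little between the groups. It ranged from 756 to 998 counts in non-addicted, 675 to 1055 in MA12 and 635 to 905 in MA24 rats. The means were 5.34 ± 0.03, 5.36 ± 0.09 and 5.21 ± 0.10 log2 CPM (SD, n = 4 each). Every non-addicted rat (5.30 to 5.36) lay above every MA24 rat (5.07 to 5.29), by a mean of 0.13, and the two-sided exact permutation test gave p = 0.0286, the smallest that 4 rats against 4 allow. Of all genes fitted without the variance filter, 9.39% had groups that did not overlap in this comparison, and this was 1 of 10 such tests on the TRPC genes and the only one below 0.05. The low variance of *Trpc1* took it out of the filtered fits with the non-addicted rats. In the fit without that filter the log2 FC was 0.12 for non-addicted vs. MA24 (SE 0.08, adjusted p = 0.446, edgeR) and -0.04 for non-addicted vs. MA12 (SE 0.07, adjusted p = 0.9, edgeR). For MA24 vs. MA12 it was -0.15 (SE 0.10).

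*Trpc6*, which encodes a diacylglycerol-activated channel also found in vascular smooth muscle, was highest in 2 rats of different groups. Its counts ranged from 61 to 149 in non-addicted, 64 to 161 in MA12 and 49 to 76 in MA24 rats. Non-addicted rat 11 (2.90 log2 CPM) and MA12 rat 31 (2.77) stood above the rest, and the groups overlapped. The log2 FC was -0.58 for MA24 vs. MA12 (SE 0.26) and -0.36 without rat 31. It was -0.13 for non-addicted vs. MA12 (95% interval -0.75 to 0.48, adjusted p = 0.902, edgeR), where it was -0.50 without rat 11 and 0.09 without rat 31. It was 0.45 for non-addicted vs. MA24 (95% interval -0.15 to 1.05, adjusted p = 0.405, edgeR). Without rat 11 that value was 0.07.

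*Trpc7*, the other diacylglycerol-activated member, had nearly equal means in the 3 groups. It held 92 to 135 counts in non-addicted, 86 to 167 in MA12 and 82 to 141 in MA24 rats, and the means were 2.51 ± 0.23, 2.50 ± 0.23 and 2.46 ± 0.46 log2 CPM (SD, n = 4 each). The log2 FC was -0.01 for MA24 vs. MA12 (SE 0.23), -0.00 for non-addicted vs. MA12 (95% interval -0.43 to 0.43, adjusted p = 0.998, edgeR) and 0.00 for non-addicted vs. MA24 (-0.48 to 0.49, adjusted p = 0.994, edgeR). Both intervals leave room for a change of about 0.5 on the log2 scale in either direction.

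For MA24 vs. MA12, 1 of the 5 TRPC genes was among the called genes, where a called gene is changed at least 1.5-fold with an adjusted p under 0.05. This is *Trpc5*, the gene behind the choice, so the call repeats the choice. Of the 10754 genes tested, 2.45% were called, and nothing is read from the count, which was 0 in 11 of 18 alternative ways of processing. All 5 log2 FCs were below 0, but that of *Trpc7* was only -0.01, and with DESeq2 4 were below and 1 above 0. The median of the 5, *Trpc5* included, was -0.58 against -0.02 for all genes. *Trpc5* was also the only one of the 5 whose groups did not overlap, as was so for 15.6% of all genes.

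For non-addicted vs. MA12, 4 of the 5 genes passed the filters and none was called by edgeR's quasi-likelihood test, its likelihood ratio test or DESeq2, and none had an unadjusted p below 0.05. Of the 10758 genes tested, 0.242% were called and 12.3% had such an unadjusted p. The median log2 FC of the 4 genes was -0.07 against -0.01 for all genes.

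For non-addicted vs. MA24, 4 of the 5 genes passed the filters and none was called by the quasi-likelihood test or DESeq2. The likelihood ratio test called 1, *Trpc4*. Of the 10744 genes tested, 0.456% were called by the quasi-likelihood test. An unadjusted p below 0.05 was found for 2 of the 4, *Trpc4* and *Trpc5*, and for 17.5% of all genes. All 4 log2 FCs were above 0, although that of *Trpc7* rounds to 0.00. The median was 0.79 against 0.00 for all genes, and with *Trpc1* in the fit without the variance filter the median of 5 was 0.46. The 3 comparisons share rats in pairs, so their values are not separate pieces of evidence.

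**Figure D4:**
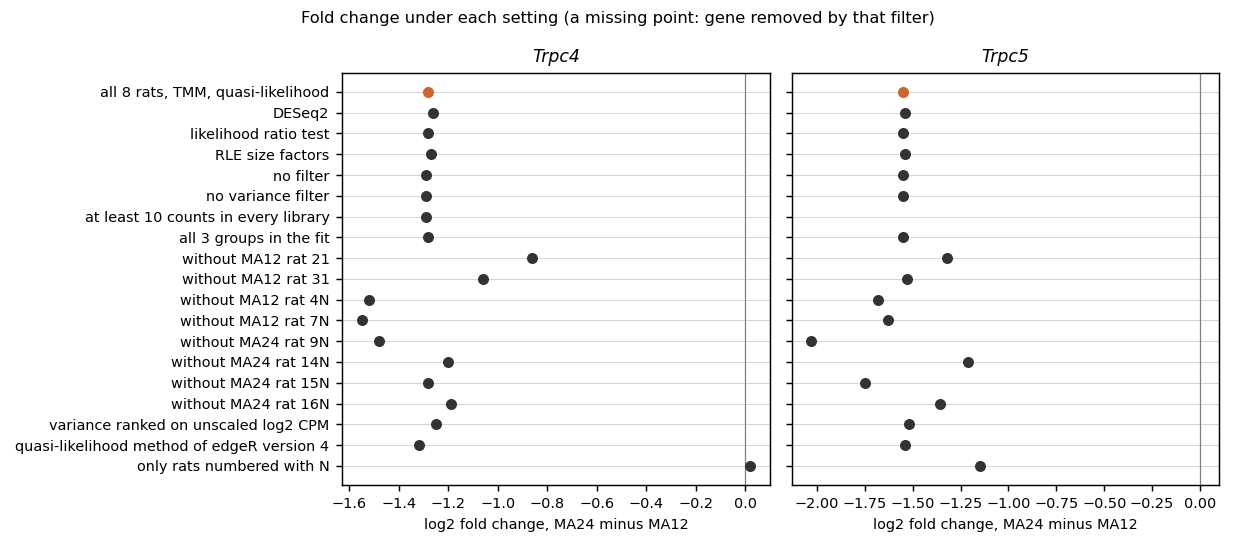
Log2 FC of *Trpc4* and *Trpc5* for MA24 minus MA12 (horizontal axis) under each way of processing the counts (rows), with the value of the reported fit in orange. *Trpc4* reaches 0.02 among the rats numbered with N, and *Trpc5* runs from -2.03 without MA24 rat 9N to -1.15 among the rats numbered with N.

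The genes that act with TRPC channels were grouped into 8 lists of 115 genes, 108 of them in the table. For MA24 vs. MA12, 83 were tested, 3 fell and none rose, against 2.45% of all genes called. An unadjusted p below 0.05 was found for 25 of the 83, against 23.6% of all genes. The 3 were *Grm5*, *Gnaq* and *Dgkg*. DESeq2 called *Grm5* and *Gnaq* but not *Dgkg*, and without the variance filter only *Grm5* was called. *Grm5*, the group I metabotropic glutamate receptor of striatal neurons, had 6.67 ± 0.40 log2 CPM in MA24 and 7.32 ± 0.10 in MA12 (log2 FC -0.61, SE 0.14, adjusted p = 0.019, edgeR). *Gnaq*, the G protein subunit that couples such receptors to phospholipase C, had 4.65 ± 0.43 and 5.29 ± 0.21 (log2 FC -0.60, SE 0.16, adjusted p = 0.0356, edgeR). *Dgkg*, a kinase that removes diacylglycerol, had 3.51 ± 0.34 and 4.28 ± 0.71 (log2 FC -0.87, SE 0.25, adjusted p = 0.046, edgeR). With single rats left out, *Grm5* was called in 6 of 8 fits, but not without MA12 rat 21 or MA24 rat 14N. *Gnaq* was called in 3 of 8, but not without MA12 rats 21, 31 or 4N or MA24 rats 14N or 15N. *Dgkg* was called in 3 of 8, but not without MA12 rats 21 or 31 or MA24 rats 14N, 15N or 16N.

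For non-addicted vs. MA24, 86 of these genes were tested, 2 were higher and none lower in non-addicted rats, against 0.456% of all genes called. An unadjusted p below 0.05 was found for 12 of the 86, against 17.5% of all genes. DESeq2 called *Enkur* but not *Dgkg*, and neither was called without the variance filter or without non-addicted rats 11 or 12 or MA24 rats 15N or 16N. *Dgkg* was higher in non-addicted rats, at 4.52 ± 0.67 log2 CPM (log2 FC 1.09, SE 0.24, adjusted p = 0.0496, edgeR). *Enkur*, a TRPC-binding adaptor also found in motile cilia, was 3.80 ± 0.40 against 2.91 ± 0.16 in MA24 (log2 FC 0.92, SE 0.18, adjusted p = 0.0354, edgeR). Markers of the choroid plexus, a ciliated epithelium of the ventricles, moved the same way, at 6.25 to 24.8 CPM in non-addicted and 3.75 to 4.78 in MA24 rats, and their part in the *Enkur* result was not tested. For non-addicted vs. MA12, none of 88 was called by the quasi-likelihood test or DESeq2, and 12 had an unadjusted p below 0.05 in either, against 12.3% of all genes in the former.

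By role, the receptors coupled to Gq had 15 of 17 log2 FCs below 0 for MA24 vs. MA12, with a median of -0.41, and among them only *Grm5* passed the test. The G protein alpha subunits had 4 of 5 below 0 (median -0.38) and the diacylglycerol kinases and lipases 5 of 8 (median -0.23). Phospholipase C genes (7 of 11 below 0, median -0.11), genes of calcium store release and refilling (6 of 9, -0.15), TRPC-binding proteins (6 of 10, -0.08) and calcineurin and NFAT genes (6 of 9, -0.15) were nearer to the median of all genes, -0.02. The other TRP channels had 9 of 14 above 0 (median 0.10).

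In non-addicted vs. MA24 rats the list medians lay between 0.00 and 0.17. The Gq-coupled receptors had 13 of 19 above 0 (median 0.15), the G protein alpha subunits 4 of 4 (0.16) and phospholipase C 6 of 11 (0.17). In non-addicted vs. MA12 rats the medians ran from -0.26 for the Gq-coupled receptors, with 14 of 19 below 0, to 0.05 for the other TRP channels.

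Markers of further cell types were summed in the same way. Mural cell markers, which label the smooth muscle and pericytes of vessels, came to 170 to 215 CPM in non-addicted, 229 to 367 in MA12 and 234 to 283 in MA24 rats. Of the 11, *Acta2* and *Tagln* were lower in non-addicted than in MA12 rats, and *Rgs5* was lower in MA24 than in MA12 (quasi-likelihood test). Endothelial markers came to 398 to 554, 525 to 656 and 600 to 674 CPM in the same order, with *Kdr* lower in non-addicted rats than in either other group and *Cldn5* lower than in MA24. DESeq2 made these calls too, but without the variance filter *Acta2*, *Tagln*, *Kdr* and *Cldn5* were not called, and *Rgs5* was. Of all genes, the quasi-likelihood test called 0.242% for non-addicted vs. MA12, 0.456% for non-addicted vs. MA24 and 2.45% for MA24 vs. MA12. All 11 mural and all 10 tested endothelial markers had a log2 FC below 0 in both comparisons with non-addicted rats. For MA24 vs. MA12, 8 of the 11 mural and 4 of the 10 endothelial markers were below 0. Striatal cholinergic interneuron markers came to 242 to 334, 212 to 312 and 261 to 385 CPM, and choroid plexus markers came to 2.87 to 9.36 CPM in MA12. Their part in the values of the TRPC genes, *Trpc6* among them, was not tested.

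The genes whose level followed each TRPC gene most closely over the 12 rats were found among 10764 genes with a mean count of at least 50, by Pearson's r of log2 CPM. These r values are a description. The rats share groups and depth, and each list was picked as the highest of many. For *Trpc5* they were *Syt1*, the calcium sensor of synaptic vesicle release (r = 0.96), *Slc4a10*, a sodium bicarbonate transporter of neurons (0.96), and *Napb*, a factor in SNARE recycling (0.96). Without the 2 rats farthest from the median of *Trpc5*, these r values were 0.84, 0.86 and 0.78. In all, 63 genes reached an r of 0.9 with *Trpc5*, a limit chosen after the values were seen.

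For *Trpc4* the first 3 were *Cacna1g*, a T-type calcium channel (Spearman's rho 0.81), *Disp2* (0.94) and *Dgkg* (0.92). *Dgkg* is also the kinase that was called for MA24 vs. MA12 and non-addicted vs. MA24 by the quasi-likelihood test, though by neither DESeq2 nor the fit without the variance filter, and the part of the septal markers in those calls was not tested. Pearson's r is not given for them, because *Trpc4* falls into 2 separate ranges of rats. For *Trpc1* the first were *Ssr1*, a subunit of the translocon-associated complex (r = 0.97), *Zmym4* (0.93) and *E2f3* (0.92). Without the 2 rats farthest from the median of *Trpc1*, these r values were 0.88, 0.74 and 0.81. No gene reached 0.9 with *Trpc6*, led by *Mettl2b*, *Gfra1* and *Cd24* (0.85 each), or with *Trpc7*, led by *RGD1565641* (0.87), *Kctd8* (0.85) and *Magee2* (0.83). Leaving out 2 rats in the same way gave 0.73, 0.51 and 0.67 for *Trpc6* and 0.75, 0.84 and 0.66 for *Trpc7*.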

How the data were processed

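The striatum of 12 rats was profiled by RNA sequencing. The authors used Cutadapt 1.18 for trimming and STAR 2.7.0e for alignment of paired-end reads to rn6, and deposited raw counts per gene from featureCounts. The submitters' processing notes also name HTSeq 0.12.4. How reads at several positions were counted is not given in the sources used here.

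Groups came from the sample titles. Per comparison, a gene needed a mean above 4 counts in its 8 libraries, and the 15% least variable genes on the scaled log2 CPM scale were then dropped. TMM scaling and the quasi-likelihood test (glmQLFit, glmQLFTest) of edgeR 4.0.16 in R 4.3.3 were used, with Benjamini-Hochberg adjustment over all genes tested. Exact permutation tests covered the 70 splits of 4 rats against 4 (Python 3.11.15, scipy 1.17.1). P-values of group comparisons set the difference between groups against the spread between rats. Counts of rats within a group differed beyond sampling noise (chi-square per degree of freedom 9.72 to 28 over 18 pairs within groups). On simulated counts with 200 genes changed 2-fold, the test recovered 71.5% (10754 genes, MA24 vs. MA12), 76% (10758, non-addicted vs. MA12) and 81% (10744, non-addicted vs. MA24). The changed genes were drawn at random from all genes tested. These rates therefore do not give the power for *Trpc4* and *Trpc5*, which varied more than most genes with similar counts. DESeq2 1.42.0, other scalings, filters and tests, and fits without single rats were alternatives. Those without single rats for pathway genes and *Crhr2* were added after seeing the data.

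The members, gene lists and tests were chosen with earlier results of these data known. Named genes were the 5 members, pathway genes called in any pair, septal markers and the 3 genes most like each member. *Trpc5os* and the called genes of the other marker lists were named after their values were seen. One gene that the naming rule covers is not reported here.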

Additional observations from a re-analysis of the deposited data

Results flagged for a closer look

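*Trpc6* in non-addicted rat 11 stood apart from its group. It had 149 counts (2.90 log2 CPM) against 61 to 77 counts in the other 3 non-addicted rats. The gap to the nearest rat was 0.832 of the range of the group, above Dixon's 95% critical value for 4 samples. It was the only such value in 39 groups examined, where chance would give about 1.95.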

How the results depend on the processing

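No paired analysis was possible because the groups share no rat numbers. The number of TRPC genes called for MA24 vs. MA12 (1 as reported) was 0 in 11 of 18 alternatives, 1 in 2 and 2 in 5. It was 0 with RLE scaling, without any filter, without the variance filter, with a floor of 10 counts in each library, with variance ranked on unscaled log2 CPM and among the rats numbered with N. It was 2 with the likelihood ratio test and with the quasi-likelihood method of edgeR version 4. Leaving out single rats gave 0 to 2, with 0 without MA12 rats 21 or 31 or MA24 rats 14N, 15N or 16N. The unscaled variance and the version 4 method were added after seeing the data. For non-addicted vs. MA24 (0 as reported) it was 1 with the likelihood ratio test and 0 to 1 when single rats were left out, with 1, *Trpc4*, without non-addicted rat 9 or rat 13. For non-addicted vs. MA12 it was 0 in 18 of 18. The *Trpc1* difference between non-addicted and MA24 rats lay between 0.08 and 0.15 with single rats left out, at an exact permutation p of 0.0571, the smallest that 3 rats against 4 allow. Pathway genes called for MA24 vs. MA12 fell from 3 to 1 without the variance filter, and for non-addicted vs. MA24 from 2 to 1 with DESeq2 and to 0 without the variance filter. The log2 FC of *Trpc4* for MA24 vs. MA12 was 0.02 among the rats numbered with N, and for non-addicted vs. MA12 it ran from -0.41 without non-addicted rat 11 to 0.72 without MA12 rat 21, with -0.34 among the rats numbered without N. The log2 FC of *Trpc5* kept its sign in 17 of 17 alternatives for MA24 vs. MA12 (-2.03 to -1.15) and in 16 of 16 for non-addicted vs. MA24 (0.78 to 1.61). The causes of these shifts were not tested, apart from the floor of 10 counts, which removes *Trpc5* where MA24 rats enter. The 5 counts in MA24 rat 14N limit the precision of *Trpc5*.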
